A study of Saccharomyces cerevisiae with 8 samples.

Results

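The phosphate regulon of budding yeast is the set of genes that cells switch on to take up, release and store phosphate. It was examined here through 10 genes picked by name: PHO5, PHO8, PHO11, PHO12, PHO81, PHO84, PHO89, SPL2, VTC1 and VTC3. All 10 were found among the 5798 genes of the deposited table, and all 10 passed the filter on low values that left 5473 tested genes. 4 of them lie within 30 kb of a chromosome end: PHO11 at 3.36 kb, PHO12 at 9.14 kb, PHO89 at 14.7 kb and PHO84 at 24.0 kb. The other 6 lie beyond 50 kb, between 112 kb (PHO8) and 431 kb (VTC3), all distances being those of the reference strain.

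Total RNA was sequenced in 8 libraries of *Saccharomyces cerevisiae* strain W303, taken from cells in exponential growth, with 2 libraries for each of 4 strains. GPD-SIR3 overexpresses SIR3, whose protein binds nucleosomes in the complex that silences genes near telomeres. GPD-SIR3-A2Q overexpresses a point mutant of SIR3, SIR3Δ lacks the gene, and WT is wild type. GPD is a strong constitutive promoter, so SIR3 in both overexpressing strains was not under its own control. The series asks how silent chromatin at chromosome ends depends on the dose of Sir3. Whether both libraries of a strain are 2 cultures is not in the labels, so the spread behind each p-value is that between samples and may be technical. The growth medium, and so its phosphate, is not given in the sources used here.

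SIR3 itself followed the labels in direction, at 12298 ± 2217 in GPD-SIR3, 13174 ± 60.2 in GPD-SIR3-A2Q, 38.0 ± 1.65 in SIR3Δ and 466 ± 25.5 in WT. In SIR3Δ, 101 and 76 reads still fell on SIR3, and their origin was not tested. Values are scaled read counts (the authors multiplied the reads of each library by 1 factor so that genes sum to the same total), given as mean ± SD over 2 libraries. Between 7006670 reads (GPD-SIR3 2) and 18077542 reads (SIR3Δ 1) fell on genes. GPD-SIR3 2, the shallowest library, also gave the lowest value of 7 of the 10 phosphate genes, and the part of depth in this was not tested. The share of all tested genes that were lowest in this library was not counted, so the count may not be particular to phosphate genes. A change is the difference of log2(scaled count + 1) between strains, with its SE from 1 limma model of the 8 libraries, and it understates the change of low genes. It is called where the Benjamini-Hochberg adjusted p over 5473 genes is below 0.05. With 2 libraries a strain, exact permutation p-values start at 0.333, so none was used for single genes.

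In yeast, the factor Pho4, helped by Pho2, turns on the regulon when phosphate is short. When phosphate is ample, the kinase Pho85 with its cyclin Pho80 phosphorylates Pho4 and keeps it out of the nucleus, and Pho81 inhibits that kinase under starvation. Pho4 binds the sequence CACGTG and, more weakly, CACGTT. The products of the regulon are phosphatases that free phosphate outside the cell or in the vacuole, transporters that bring it in, and the vacuolar transporter chaperone that stores it as polyphosphate.

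The upstream letters of the genes are shown first, because the genes near ends and the internal ones share their Pho4-type sites. They were read from the reference genome, build R64, of strain S288C, and W303 can differ from it. Sites (CACGTG or CACGTT, on either strand) are in capitals, and positions count back from the coding start. Windows of 200 bases follow for the 4 genes near ends and for PHO5. They span positions -440 to -241 of PHO12 (chrVIII:551659-551858, plus strand) and of PHO11 (chrI:225020-225219, plus), -480 to -281 of PHO89 (chrII:798803-799002, minus), -600 to -401 of PHO84 (chrXIII:26201-26400, minus) and -400 to -201 of PHO5 (chrII:431152-431351, minus).
PHO12: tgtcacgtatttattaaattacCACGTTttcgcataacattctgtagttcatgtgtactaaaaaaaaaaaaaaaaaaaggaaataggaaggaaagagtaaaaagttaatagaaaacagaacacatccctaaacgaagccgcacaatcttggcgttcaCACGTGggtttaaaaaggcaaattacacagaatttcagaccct
PHO11: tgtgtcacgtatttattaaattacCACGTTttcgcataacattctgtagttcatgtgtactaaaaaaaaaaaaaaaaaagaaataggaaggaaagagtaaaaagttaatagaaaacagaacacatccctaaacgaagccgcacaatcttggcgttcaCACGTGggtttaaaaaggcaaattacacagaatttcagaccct
PHO89: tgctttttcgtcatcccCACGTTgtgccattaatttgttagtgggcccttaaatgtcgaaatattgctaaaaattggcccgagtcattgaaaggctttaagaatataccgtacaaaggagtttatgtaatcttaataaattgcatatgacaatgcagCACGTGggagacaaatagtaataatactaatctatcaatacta
PHO84: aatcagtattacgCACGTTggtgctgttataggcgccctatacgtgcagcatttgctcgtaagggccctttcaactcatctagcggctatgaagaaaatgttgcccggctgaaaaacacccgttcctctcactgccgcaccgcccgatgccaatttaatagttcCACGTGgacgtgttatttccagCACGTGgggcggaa
PHO5: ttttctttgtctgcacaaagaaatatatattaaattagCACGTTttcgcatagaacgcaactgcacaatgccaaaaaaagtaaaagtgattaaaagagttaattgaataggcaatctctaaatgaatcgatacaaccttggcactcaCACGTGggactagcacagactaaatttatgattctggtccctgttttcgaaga

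For the other internal genes, 40 bases around the CACGTG nearest the coding start are shown, in capitals at the site. They come from PHO8 (chrIV:1420762-1420801, minus), PHO81 (chrVII:958532-958571, minus), SPL2 (chrVIII:375109-375148, minus), VTC1 (chrV:302632-302671, plus) and VTC3 (chrXVI:517307-517346, minus).
PHO8: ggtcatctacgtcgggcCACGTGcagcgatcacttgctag
PHO81: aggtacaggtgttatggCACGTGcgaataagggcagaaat
SPL2: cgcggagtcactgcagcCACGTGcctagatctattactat
VTC1: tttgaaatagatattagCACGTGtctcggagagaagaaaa
VTC3: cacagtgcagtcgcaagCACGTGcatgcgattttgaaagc

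Each of the 10 genes held at least 1 CACGTG in the 600 bases before its coding start, against 7.40% of 5772 genes with a full window. SPL2 held 4, PHO84 and VTC3 held 2 each, and the other genes held 1. At least 1 CACGTT stood in the same window of all but SPL2 and VTC1, against 18.8% of all genes. The longer form CACGTGGG, which holds the first motif, stood there in 7 of the 10 (70%), against 0.572% of all genes: PHO5, PHO11, PHO12, PHO84, PHO89, SPL2 and VTC3. All 4 genes near ends carried it, and so did 3 of the internal ones. The genes were picked as known targets of Pho4, so these matches describe the choice.

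PHO11 (YAR071W, chromosome I, 225460 to 226863) and PHO12 (YHR215W, chromosome VIII, 552099 to 553502) encode secreted acid phosphatases, and their coding sequences of 1404 bases differ at 4 positions. With the PHO11 base first and positions counted from the coding start, these are A273G, A1060C, C1245T and A1268G. The 361 bases before the coding start are identical. The stretch with the last pair of differences, positions 1236 to 1277 of the coding sequence (chrI:226695-226736 and chrVIII:553334-553375, both plus), shows in capitals how little separates the copies.
PHO11: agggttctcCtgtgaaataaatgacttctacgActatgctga
PHO12: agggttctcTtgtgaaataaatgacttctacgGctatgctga
Of the 50-base stretches of PHO11, 88.3% occur elsewhere in the genome, and of those of PHO12, 87.2%. The treatment of reads that match more than 1 place is not given in the sources used here, so the split of reads between both copies is uncertain. PHO5, the main repressible acid phosphatase, is 83.5% identical to PHO12 base by base, and 12.3% of its 50-base stretches occur elsewhere. The other 7 genes have no such stretch.

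The acid phosphatase genes near chromosome ends fell in GPD-SIR3 and stood at or somewhat under the WT level in the other strains. PHO12 had 51.7 and 28 scaled counts in GPD-SIR3, 492 and 599 in GPD-SIR3-A2Q, 495 and 425 in SIR3Δ, and 937 and 663 in WT. Both GPD-SIR3 libraries lay far under the other 6, which overlapped among themselves except that both WT libraries were the highest. Against WT, PHO12 fell by 4.34 ± 0.28 in GPD-SIR3 (20.2-fold lower, limma adjusted p = 5.26e-05), from 143 reads in all in GPD-SIR3 and 3295 in WT. Only 3 of the 5473 tested genes had a lower value in that comparison. RNA was measured over the whole culture, so fewer cells with the transcript and less of it per cell cannot be told apart.

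PHO11 had 8.55 and 8 scaled counts in GPD-SIR3, 89.2 and 79.8 in GPD-SIR3-A2Q, 59.3 and 69.3 in SIR3Δ, and 118 and 76.4 in WT. The GPD-SIR3 libraries again stood apart from all the others, at 27 reads in all, against 402 in WT. PHO11 fell by 3.37 ± 0.27 in GPD-SIR3 against WT (10.3-fold lower, limma adjusted p = 2.01e-04). Against GPD-SIR3-A2Q, which has as much SIR3 RNA, GPD-SIR3 was lower by 9.21-fold for PHO11 (-3.20 ± 0.27, limma adjusted p = 2.77e-04) and by 13.9-fold for PHO12 (-3.80 ± 0.28, limma adjusted p = 1.08e-04). SIR3 itself was not distinguished between those strains (-0.11, limma adjusted p = 0.786, with a sign that turned without GPD-SIR3 1).

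Set against WT, GPD-SIR3-A2Q had values of -0.17 ± 0.27 for PHO11 (95% interval -0.78 to 0.45) and -0.54 ± 0.28 for PHO12 (-1.17 to 0.09), neither called; the first turned sign without WT 1 (0.14). SIR3Δ had -0.56 ± 0.27 for PHO11 (-1.17 to 0.06) and -0.78 ± 0.28 for PHO12 (-1.41 to -0.15), also not called (limma adjusted p = 0.643 and 0.473). Neither gene was called higher in SIR3Δ.

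PHO5 (YBR093C, chromosome II, 429548 to 430951) lies 382 kb from the nearest end. Its scaled counts were 3905 and 3173 in GPD-SIR3, 3829 and 3363 in GPD-SIR3-A2Q, 5769 and 3234 in SIR3Δ, and 7805 and 5467 in WT. Both overexpressing strains lay under both WT libraries, and SIR3Δ overlapped WT. PHO5 was not called in any comparison: its changes against WT were -0.89 ± 0.26 in GPD-SIR3 (95% interval -1.49 to -0.30, limma adjusted p = 0.282), -0.86 ± 0.26 in GPD-SIR3-A2Q (0.429) and -0.60 ± 0.26 in SIR3Δ (0.588). DESeq2 called it lower in GPD-SIR3 (-0.95, adjusted p = 0.00580) and in GPD-SIR3-A2Q (-0.85, adjusted p = 0.0378). GPD-SIR3 and GPD-SIR3-A2Q differed by -0.03 (95% interval -0.62 to 0.57), a value that became 0.12 without GPD-SIR3 2.

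Since these phosphatase genes are of equal length, their levels can be set against one another within a library. The ratio of PHO12 to PHO5 was 0.0132 and 0.00882 in GPD-SIR3, 0.128 and 0.178 in GPD-SIR3-A2Q, 0.0857 and 0.131 in SIR3Δ, and 0.120 and 0.121 in WT. The same ratio for PHO11 was 0.00219 and 0.00252 in GPD-SIR3, 0.0233 and 0.0237 in GPD-SIR3-A2Q, 0.0103 and 0.0214 in SIR3Δ, and 0.0151 and 0.0140 in WT. For both genes the GPD-SIR3 libraries were the lowest, and for PHO11 both GPD-SIR3-A2Q libraries were the highest. PHO3 (YBR092C), the constitutive acid phosphatase gene next to PHO5, has no CACGTG or CACGTT in its 600 upstream bases and was not called in any comparison. It was highest in GPD-SIR3, at 2715 and 2635 scaled counts, against 2154 and 1897 in GPD-SIR3-A2Q, 2069 and 1785 in SIR3Δ, and 2119 and 2202 in WT. Its change in GPD-SIR3 was 0.31 ± 0.11 against WT (limma adjusted p = 0.471) and 0.40 ± 0.11 against GPD-SIR3-A2Q (0.207). The higher PHO3 lowers the ratio of PHO5 to PHO3 in GPD-SIR3. PHO5 was 1.44 and 1.20 times PHO3 in GPD-SIR3, 1.78 and 1.77 times in GPD-SIR3-A2Q, 2.79 and 1.81 times in SIR3Δ, and 3.68 and 2.48 times in WT, so both overexpressing strains lay under WT for this ratio too.

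**Figure D1:**
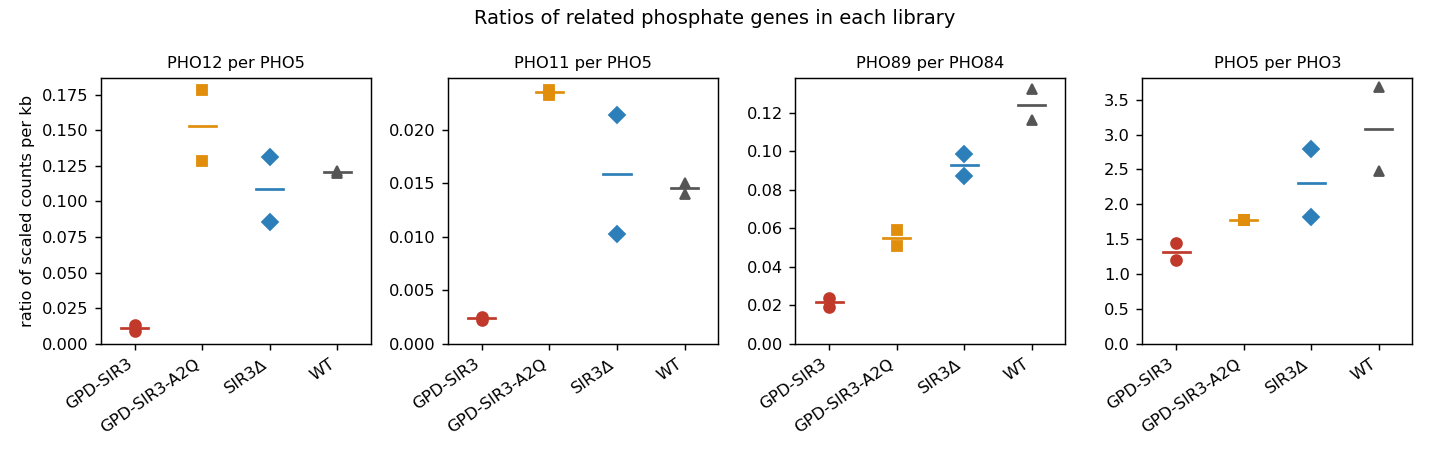
Ratio of scaled read counts per kb of 4 gene pairs (vertical axes, linear, from 0) in the libraries of GPD-SIR3, GPD-SIR3-A2Q, SIR3Δ and WT; points are libraries and bars are means of 2. PHO12 per PHO5 was 0.0132 and 0.00882 in GPD-SIR3, against 0.120 and 0.121 in WT, and PHO89 per PHO84 was lowest in GPD-SIR3 and next lowest in GPD-SIR3-A2Q.

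PHO8 (YDR481C, chromosome IV, 1418550 to 1420250), the alkaline phosphatase of the vacuole, is internal. Its scaled counts were 1642 and 1987 in GPD-SIR3, 1611 and 1987 in GPD-SIR3-A2Q, 2679 and 2407 in SIR3Δ, and 2215 and 2191 in WT. SIR3Δ lay above and both overexpressing strains lay under WT, with no call: GPD-SIR3 stood at -0.29 ± 0.14 against WT, GPD-SIR3-A2Q at -0.30 ± 0.14 and SIR3Δ at 0.20 ± 0.14 (limma adjusted p = 0.636, 0.756 and 0.774).

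Among the transporters, PHO89 fell in both overexpressing strains, and PHO84 was not called in any comparison. PHO89 (YBR296C, chromosome II, 796798 to 798522) encodes a sodium-phosphate cotransporter. It had 371 and 277 scaled counts in GPD-SIR3, 1014 and 1034 in GPD-SIR3-A2Q, 1844 and 1404 in SIR3Δ, and 2053 and 2140 in WT. No strain overlapped another, and the order ran from GPD-SIR3, the lowest, through GPD-SIR3-A2Q and SIR3Δ to WT. PHO89 fell by 2.70 ± 0.17 in GPD-SIR3 against WT (6.52-fold lower, limma adjusted p = 4.65e-05) and by 1.67 ± 0.17 against GPD-SIR3-A2Q (3.19-fold lower, limma adjusted p = 9.19e-04).

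In GPD-SIR3-A2Q against WT, PHO89 fell by 1.03 ± 0.17 (2.05-fold lower, limma adjusted p = 0.0284). It was the 1 lower gene among the 233 tested genes within 30 kb of an end in that comparison. The call was lost without any 1 of the 4 libraries of those strains (limma adjusted p = 0.157 to 0.328) and without the filter on low values (0.187). In SIR3Δ against WT the value was -0.38 ± 0.17 (95% interval -0.77 to 0.00, limma adjusted p = 0.595), not called.

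PHO84 (YML123C, chromosome XIII, 24037 to 25800) encodes the high-affinity proton-phosphate transporter. Its level was among the highest measured: per kb of gene it exceeded 98.2% of tested genes in WT. It had 19840 and 11995 scaled counts in GPD-SIR3, 20476 and 17950 in GPD-SIR3-A2Q, 19103 and 16515 in SIR3Δ, and 15874 and 18861 in WT. The libraries of every strain overlapped those of WT. The changes against WT were -0.17 ± 0.21 in GPD-SIR3 (95% interval -0.64 to 0.31), 0.15 ± 0.21 in GPD-SIR3-A2Q and 0.04 ± 0.21 in SIR3Δ (limma adjusted p = 0.885, 0.911 and 0.977). The value became 0.20 in GPD-SIR3 without GPD-SIR3 2, and -0.09 in SIR3Δ without WT 1. Per kb, PHO89 stood at 1.91% and 2.36% of PHO84 in GPD-SIR3, 5.06% and 5.89% in GPD-SIR3-A2Q, 9.87% and 8.70% in SIR3Δ, and 13.2% and 11.6% in WT.

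SPL2 (YHR136C, chromosome VIII, 374654 to 375100), which holds back low-affinity phosphate transport, had 353 and 251 scaled counts in GPD-SIR3, 295 and 319 in GPD-SIR3-A2Q, 453 and 342 in SIR3Δ, and 490 and 372 in WT. Both overexpressing strains lay under WT and SIR3Δ overlapped it. Against WT, SPL2 stood at -0.52 ± 0.22 (GPD-SIR3), -0.48 ± 0.22 (GPD-SIR3-A2Q) and -0.12 ± 0.22 (SIR3Δ), with no call (limma adjusted p = 0.540, 0.756 and 0.943).

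**Figure D2:**
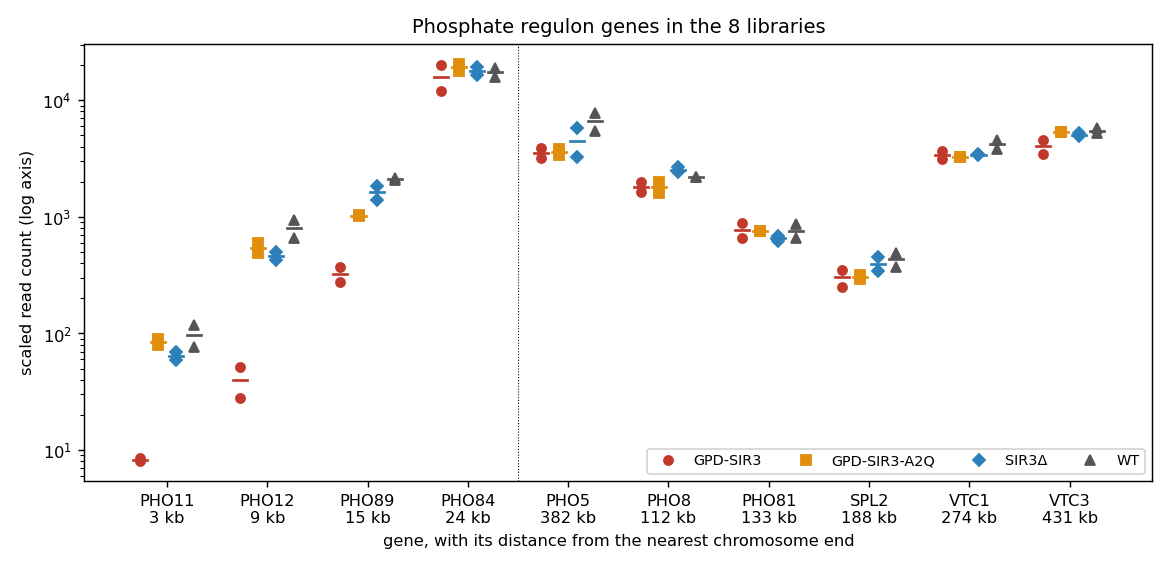
Scaled read counts (vertical log axis) of the 10 phosphate regulon genes, with their distances from a chromosome end under the names and genes within 30 kb left of the dotted line; points are single libraries of GPD-SIR3, GPD-SIR3-A2Q, SIR3Δ and WT, and bars are means of 2. The GPD-SIR3 points of PHO11, PHO12 and PHO89 lie under those of all other strains. Those of the internal gene VTC3 also do, by less (4585 and 3488, against 4901 in the lowest other library), while those of PHO84 and the remaining internal genes lie near the other strains.

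Of the regulators and storage genes, all internal, none was called. PHO81 (YGR233C, chromosome VII, 954674 to 958210), the kinase inhibitor, had 657 and 882 scaled counts in GPD-SIR3, 749 and 754 in GPD-SIR3-A2Q, 625 and 684 in SIR3Δ, and 655 and 870 in WT. Every strain overlapped WT at this gene, and its change in GPD-SIR3 was 0.01 ± 0.18 (95% interval -0.39 to 0.41), with a sign that turned under other scalings.

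VTC1 (YER072W, chromosome V, 302806 to 303195), a small membrane subunit of the polyphosphate complex, had 3123 and 3675 scaled counts in GPD-SIR3, 3263 and 3255 in GPD-SIR3-A2Q, 3458 and 3380 in SIR3Δ, and 3833 and 4515 in WT. All 6 libraries of the other strains lay under both WT libraries, with GPD-SIR3 at -0.30 ± 0.12, GPD-SIR3-A2Q at -0.35 ± 0.12 and SIR3Δ at -0.28 ± 0.12, none called (limma adjusted p = 0.516, 0.575 and 0.574). VTC3 (YPL019C, chromosome XVI, 514511 to 517018), a regulatory subunit with an SPX domain, had 4585 and 3488 scaled counts in GPD-SIR3, 5350 and 5318 in GPD-SIR3-A2Q, 5254 and 4901 in SIR3Δ, and 5747 and 5198 in WT. GPD-SIR3 was the lowest strain at VTC3 (-0.45 ± 0.13 against WT, limma adjusted p = 0.296, and -0.42 ± 0.13 against GPD-SIR3-A2Q, limma adjusted p = 0.309).

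Set side by side in GPD-SIR3 against WT, 3 of the 4 genes near ends fell and 0 of the 6 internal ones were called by limma. PHO11 and PHO12 are near-identical and the split of their reads is uncertain, so they may not be 2 separate measures. Of the 6 internal genes, 4 had an unadjusted limma p under 0.05, beside 371 of the 4927 tested genes beyond 50 kb. DESeq2 called PHO5, and its share of calls over all genes was not counted. Over all tested genes, limma called 1.08% lower in that comparison, 17.6% of the 233 within 30 kb and 0.365% of the 4927 beyond 50 kb. The median change was -3.04 for the 4 near ends (-0.14 over all genes within 30 kb) and -0.37 for the 6 internal genes (0.05 over all genes beyond 50 kb). By distance alone, PHO11 and PHO12 fell among 35 tested genes within 10 kb, of which 57.1% fell. PHO89 is among 78 genes at 10 to 20 kb, of which 24.4% fell, and PHO84 among 120 genes at 20 to 30 kb, of which 1.67% fell. Of the 41 lower genes within 30 kb, 7 (17.1%) held CACGTG in their upstream 600 bases, among them PHO11, PHO12, PHO89 and GIT1, beside 8.58% of the 233 tested genes there. The 41 genes were taken by call and distance, not by function. Most of the 7 are the phosphate genes just named, so the higher share rests on them, and no link to the motif was tested. The libraries of GPD-SIR3 all lay under those of WT for 8 of the 10 genes, 5 of them internal, where 13.3% of tested genes did. For GPD-SIR3-A2Q this held for 6 of the 10 (23.3% of tested genes), for SIR3Δ for 4 (28.3%), and for GPD-SIR3 against GPD-SIR3-A2Q for 4 (13%).

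In GPD-SIR3 against GPD-SIR3-A2Q the same 3 genes, PHO11, PHO12 and PHO89, fell, where 0.877% of all tested genes and 19.3% of those within 30 kb were called lower. The medians there were -2.44 for the 4 genes near ends and -0.01 for the internal ones. GPD-SIR3-A2Q against WT had 1 lower gene of 10, PHO89, beside 0.621% of all tested genes. Its medians were -0.35 for the genes near ends and -0.33 for the internal ones. SIR3Δ against WT had 0 limma calls among the 10, beside 0.968% of tested genes called by limma in either direction and 0.786% lower. At an unadjusted limma p under 0.05 there were 3 of the 10 (PHO12, PHO5 and VTC1), beside 462 of the 5473 tested genes. By edgeR, DESeq2 and limma-voom there were 0 calls among the 10, and their shares over all genes were not counted. The medians in SIR3Δ were -0.47 near ends and -0.16 inside. The 3 comparisons against WT share the WT libraries.

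**Figure D3:**
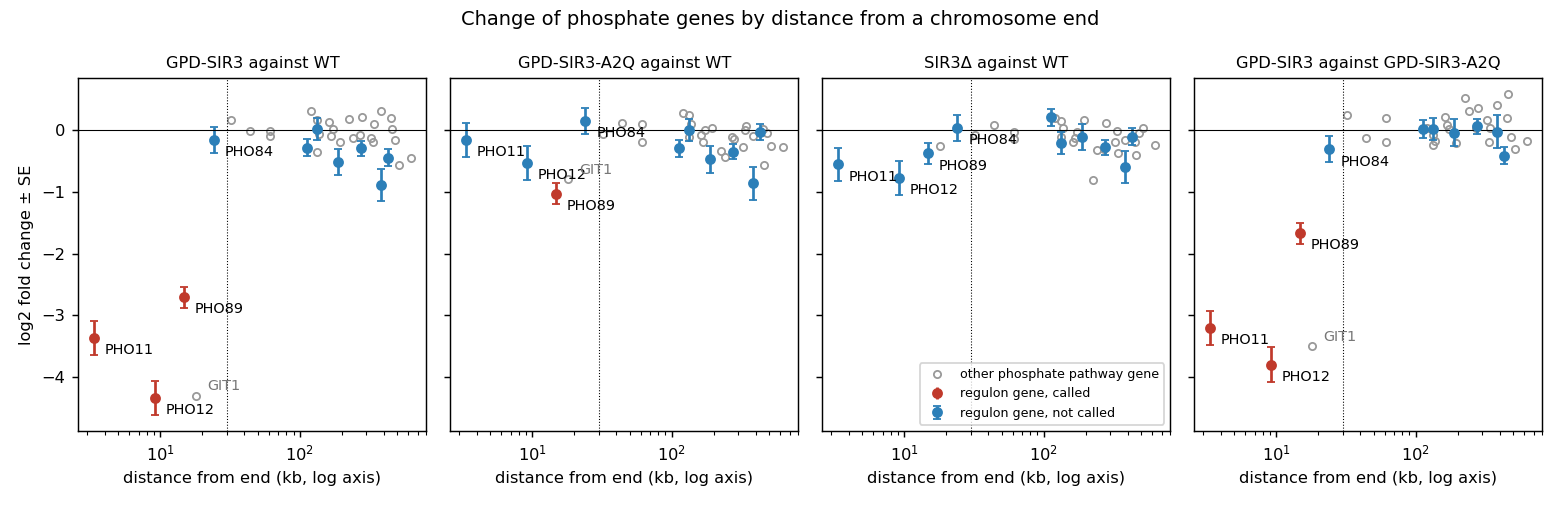
Log2 fold change ± SE (vertical axis) of the phosphate regulon genes (filled; red where called) and of 26 other phosphate pathway genes (open) against the distance from the nearest chromosome end in kb (horizontal log axis, dotted line at 30 kb), with 1 panel for each comparison. In both panels with GPD-SIR3 as the first strain, PHO11, PHO12, PHO89 and GIT1 are the called genes and lie lowest; PHO84 and the genes beyond 30 kb lie between -0.89 and 0.31 in GPD-SIR3 against WT.

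The wider pathway was followed through 26 further genes, all of them tested. GIT1 (YCR098C, chromosome III, 297049 to 298605), a permease for glycerophosphoinositol and the 1 gene of this list within 30 kb, 18.0 kb from its end, was the 1 gene called. It had 12.1 and 24 scaled counts in GPD-SIR3, 171 and 244 in GPD-SIR3-A2Q, 279 and 319 in SIR3Δ, and 301 and 423 in WT. Both GPD-SIR3 libraries lay far under the rest. GIT1 fell by 4.30 ± 0.32 in GPD-SIR3 against WT (19.7-fold lower, limma adjusted p = 1.17e-04) and was also lower against GPD-SIR3-A2Q (11.3-fold, limma adjusted p = 4.46e-04). Its upstream 600 bases hold 1 CACGTG and no CACGTT, without the longer CACGTGGG.

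The other 25 pathway genes had changes between -0.56 and 0.31 in GPD-SIR3 against WT, with a median of -0.02 and no call by limma. Of the 4 genes of the central switch, PHO4 had 107 and 89 scaled counts in GPD-SIR3, 95.6 and 120 in GPD-SIR3-A2Q, 85.3 and 126 in SIR3Δ, and 81.3 and 120 in WT. Its change in GPD-SIR3 was -0.02 ± 0.27, with a sign that other settings turned. The values of PHO2, PHO80 and PHO85 in GPD-SIR3 against WT were -0.08 ± 0.19, -0.12 ± 0.19 and 0.01 ± 0.27, with limma adjusted p between 0.914 and 0.996. Against WT, PHO85 had -0.56 ± 0.27 in GPD-SIR3-A2Q (limma adjusted p = 0.760) and -0.41 ± 0.27 in SIR3Δ (0.768), not called.

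The ends that carry the 4 genes differed in what lay around them. On the right end of chromosome VIII, IMD2 (YHR216W), an IMP dehydrogenase gene 6.68 kb from the end and next to PHO12, fell with it in GPD-SIR3 (-2.85 ± 0.22, limma adjusted p = 1.29e-04). Of its 50-base stretches, 33.7% occur elsewhere, so its counts are uncertain too. In SIR3Δ, IMD2 rose by 1.32 ± 0.22 (limma adjusted p = 0.0266), where PHO12 had -0.78; that call was lost without SIR3Δ 1, SIR3Δ 2, WT 2, GPD-SIR3-A2Q 1 or GPD-SIR3-A2Q 2 (0.0814 to 0.183), with only SIR3Δ and WT in the model (0.0645) and without the filter (0.151). The other 3 tested neighbours of PHO12 had values of 0.06 to 0.63 in GPD-SIR3, and no tested gene lies between 9.14 and 34.0 kb on that end. PHO11 was the tested gene closest to the right end of chromosome I. Its nearest tested neighbour there was FLO1 at 22.2 kb (-0.20), and none of its 3 neighbours was called in any comparison.

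PHO89 had 5 tested neighbours, none called in GPD-SIR3 against WT, with values of -1.65 to -0.11. Those between PHO89 and the end, MAL33 (-1.65 ± 0.41, limma adjusted p = 0.166) and MAL31 (-1.29 ± 0.29, limma adjusted p = 0.100), belong to a maltose gene cluster and had the 2 lowest values. PCA1, on the other side at 16.7 kb, had -0.31 ± 0.16. VBA2, a vacuolar permease gene at 24.8 kb, was called lower in SIR3Δ against WT (-1.53 ± 0.25, limma adjusted p = 0.0273), a call lost without any 1 library of SIR3Δ or WT (0.115 to 0.214) and without the filter (0.151). Around PHO84 no gene was called. The 8 tested genes between it and the left end of chromosome XIII, the closest at 10.2 kb, had values of -0.22 to 0.25 in GPD-SIR3 against WT, and none of the 18 tested genes within 45 kb was called in any comparison.

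**Figure D4:**
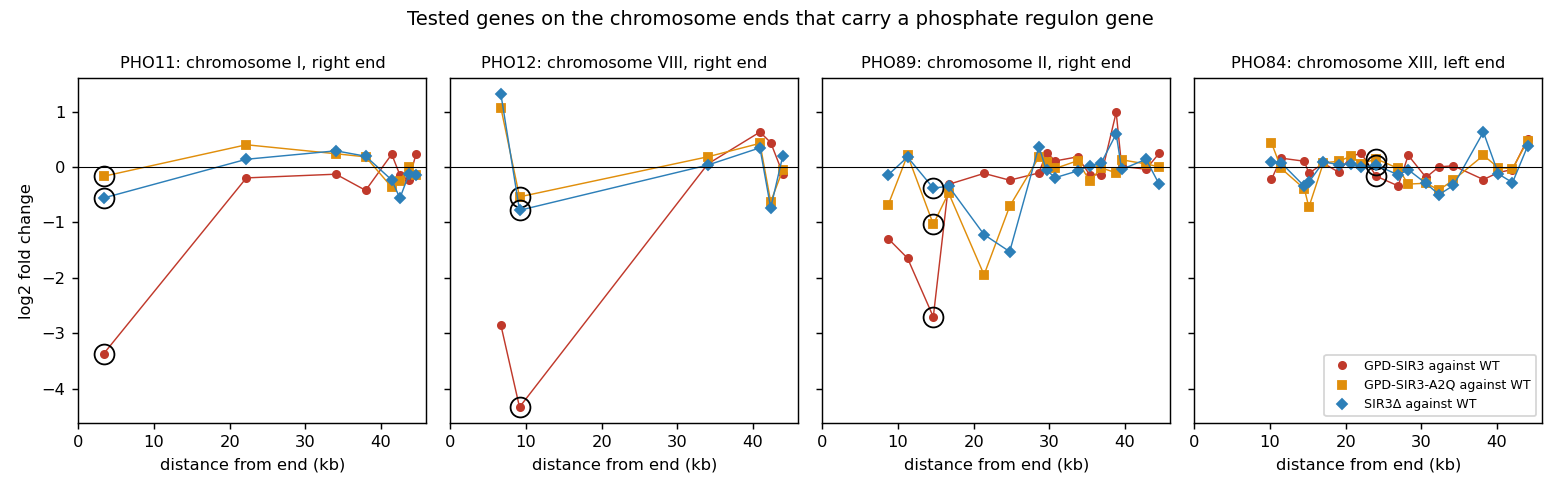
Log2 fold change (vertical axis) of every tested gene within 45 kb of the 4 chromosome ends that carry PHO11, PHO12, PHO89 or PHO84 (circled), against its distance from the end in kb; red, orange and blue stand for GPD-SIR3, GPD-SIR3-A2Q and SIR3Δ, each against WT. In GPD-SIR3 the circled genes on 3 ends lie at -2.70 to -4.34, and on the left end of chromosome XIII the genes between PHO84 and the end lie between -0.22 and 0.25.

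Non-coding transcripts overlapped 4 of the 10 genes, 11 transcripts in all, each on the opposite strand. The sources used here do not state strand use in the counting. XUT0075 covers every base of PHO5 and held 38.9 scaled counts in WT 1, against 7805 for PHO5. Nearly all reads counted for PHO5 were therefore not counted for XUT0075. Of the 11 transcripts, 7 passed the filter, and limma called none in any comparison. The smallest limma adjusted p was 0.527, for XUT1125 over PHO84 in GPD-SIR3 against GPD-SIR3-A2Q. The smallest unadjusted limma p was 0.0410, for CUT561 over VTC1 in GPD-SIR3-A2Q against WT (limma adjusted p = 0.623). Of 3093 tested non-coding transcripts, limma called 2.49% in GPD-SIR3 against WT, 2.94% in GPD-SIR3 against GPD-SIR3-A2Q, 1% in SIR3Δ and 0% in GPD-SIR3-A2Q. XUT0075, which runs antisense along the whole of PHO5, had 77.8 and 56 scaled counts in GPD-SIR3, 73.5 and 69.7 in GPD-SIR3-A2Q, 72.9 and 63.9 in SIR3Δ, and 38.9 and 54.1 in WT. Both WT libraries were the lowest there, but the change of XUT0075 in GPD-SIR3 (0.52 ± 0.30, limma adjusted p = 0.650) was not called. 2F-177, an overlapping transcript of the same strand as XUT0075, had 80.5 and 57 in GPD-SIR3, 75.8 and 74.4 in GPD-SIR3-A2Q, 77.1 and 64.9 in SIR3Δ, and 43.2 and 58.2 in WT. XUT1125, antisense to PHO84, was at 13.0 and 13 in GPD-SIR3, 2.33 and 10.1 in GPD-SIR3-A2Q, 8.14 and 4.36 in SIR3Δ, and 11.7 and 14.7 in WT.

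By Pearson correlation of log2(scaled count + 1) over the 8 libraries, the genes outside the regulon most like PHO12 were YEL077C (0.996), SEO1 (0.993) and YIR042C (0.991), all within 10 kb of an end. Those most like PHO11 were IRC7 (0.983), YDR541C (0.977) and RDS1 (0.974), at 3.16 to 11.2 kb. PHO89 was most like ALA1 (0.976, 142 kb from an end), SRY1 (0.962) and SEO1 (0.962). PHO84 was most like PHO90 (0.973), RIO2 (0.968) and NOP1 (0.961), all beyond 50 kb. The 8 points of each correlation fall into 4 strains, so these values carry no test. For PHO11, PHO12 and PHO89 they describe mainly the pattern over strains. The PHO84 libraries of every strain overlapped those of WT, so its values reflect differences between single libraries too. Both PHO84 and PHO90 were lowest in GPD-SIR3 2, the shallowest library (11995 and 1190 scaled counts).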

How the data were processed

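The authors deposited 1 table of 11436 features. TopHat 1.4.1 and build R64 are named per the submitters' processing notes; the counting tool is not given in the sources used here. The values of GPD-SIR3 2 are whole numbers, read as counts as deposited. For the other 7 libraries the authors deposited a signal, counts times 1 factor per library, so that genes sum to 7006670. Whole reads were recovered for 100% of values (tolerance 0.01 of a read). Another 16 columns were not used.

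Genes that reached 10 in 2 or more libraries were fitted with limma 3.58.1 (trend, R 4.3.3) on log2(value + 1), all 4 groups in 1 model with 4 residual degrees of freedom, two-sided; non-coding transcripts were fitted apart. edgeR 4.0.16, DESeq2 1.42.0 and limma-voom were run on the recovered reads as alternatives. The limma step, coded apart from the main fit, was first run on simulated counts, and the outcome is not given here. Of 5798 gene IDs, 5789 matched the reference and 5757 had equal coordinates; distances are those of R64.

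The members and lists were chosen with earlier results of these data known. The rule for names took all 10 members, SIR3, the 4 switch genes, called genes among 26 pathway genes and among up to 3 tested neighbours on each side of a member near an end, non-coding transcripts over a member that were called or had a mean of at least 50, and the 3 genes most like each member near an end. PHO3, FLO1, MAL33, MAL31, PCA1, CUT561 and XUT1125 were added after their values were seen.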

Additional observations from a re-analysis of the deposited data

Results flagged for a closer look

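The changes of 3 genes against WT differed between both overexpressing strains by the direct test, GPD-SIR3 against GPD-SIR3-A2Q: PHO11 by -3.20, PHO12 by -3.80 and PHO89 by -1.67 on the log2 scale. These strains did not differ detectably in SIR3 RNA. The difference of PHO11 stayed between -3.41 and -2.37 over 17 alternatives, that of PHO12 between -4.23 and -3.37 and that of PHO89 between -1.88 and -1.46 over 18 each, all of them called.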

How the results depend on the processing

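The calls of PHO11, PHO12, PHO89, GIT1 and IMD2 in GPD-SIR3, against WT and against GPD-SIR3-A2Q, held under each of the 17 or 18 alternatives run for them, with PHO12 against WT between -4.77 and -3.90, PHO11 between -3.68 and -2.52 and PHO89 between -2.92 and -2.49. The count of phosphate genes lower in GPD-SIR3-A2Q than in WT, 1, became 0 without the filter and 2 with DESeq2, and lay between 0 and 1 with 1 library left out. The median of the 4 genes near ends in GPD-SIR3 against WT, -3.04, became -2.60 with a pseudocount of 10, -2.70 with PHO11 and PHO12 summed and -3.37 within 20 kb. Replicate numbers are shared between strains, and the labels do not say what a shared number means. Same-numbered libraries deviated together for SIR3Δ and WT (correlation of deviations 0.55) and less for GPD-SIR3 and GPD-SIR3-A2Q (0.30). The other pairs of strains had -0.03 to 0.08, so a batch shared by some strains remains possible. With the replicate number as a block, the count in GPD-SIR3-A2Q became 2, with PHO5 added (limma adjusted p = 0.0303), and PHO5 was also called in GPD-SIR3 (0.0166). The cause was not tested. Uncalled values near 0 turned sign under other scalings or tools: PHO8 in GPD-SIR3 against GPD-SIR3-A2Q had -0.054 (TMM), -0.056 (edgeR), -0.066 (DESeq2), -0.059 (limma-voom). PHO81 in GPD-SIR3 against GPD-SIR3-A2Q had -0.049 (TMM), -0.041 (edgeR), -0.051 (DESeq2), -0.068 (limma-voom). VTC1 in GPD-SIR3 against GPD-SIR3-A2Q had -0.012 (TMM), -0.0092 (edgeR), -0.019 (DESeq2), -0.016 (limma-voom). PHO2 in GPD-SIR3 against GPD-SIR3-A2Q had -0.035 (TMM), -0.038 (edgeR), -0.047 (DESeq2), -0.018 (limma-voom). PHO81 in GPD-SIR3 against WT had -0.023 (TMM), -0.029 (edgeR), -0.038 (DESeq2), -0.034 (limma-voom). PHO4 in GPD-SIR3 against WT had 0.035 (limma-voom). PHO85 in GPD-SIR3 against WT had -0.026 (TMM), -0.11 (limma-voom). PHO81 in GPD-SIR3-A2Q against WT had 0.026 (TMM), 0.012 (edgeR), 0.013 (DESeq2), 0.034 (limma-voom). Leaving out 1 library at a time turned the sign of further uncalled values. The ranges were -0.18 to 0.12 for PHO5, -0.14 to 0.16 for PHO8, -0.19 to 0.23 for PHO81, -0.68 to 0.049 for PHO84, -0.29 to 0.20 for SPL2, -0.061 to 0.17 for VTC1, -0.12 to 0.18 for PHO2, -0.30 to 0.029 for PHO4, -0.087 to 0.39 for PHO80, -0.30 to 0.074 for SIR3 between both overexpressing strains. They were -0.47 to 0.14 for PHO11, -0.21 to 0.20 for PHO81, -0.11 to 0.037 for VTC3, -0.34 to 0.12 for PHO2, -0.16 to 0.39 for PHO4 in GPD-SIR3-A2Q against WT. They were -0.20 to 0.22 for PHO81, -0.53 to 0.20 for PHO84, -0.31 to 0.15 for PHO2, -0.29 to 0.26 for PHO4, -0.41 to 0.43 for PHO85, -0.55 to 0.074 for VBA2 in GPD-SIR3 against WT. They were -0.087 to 0.16 for PHO84, -0.32 to 0.086 for SPL2, -0.21 to 0.35 for PHO4 in SIR3Δ against WT. The low level of PHO11 in GPD-SIR3 rests on 27 reads in both libraries together.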
